A study of Sus scrofa with 48 samples.

Results

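The genes described here encode components of the complement system: C1QA, C1QB, C1QC, C1R, C1S, C3, CFB, CFD and C7. Their levels were measured in longissimus muscle of 48 growing barrows. A probe of the microarray was taken for a gene when its gene name, or the symbol in brackets in its description, was that of the gene. This rule found 21 of the 60305 distinct probes that were not controls, for 8 of the 9 genes. A probe was tested when it exceeded the background clearly on 12 or more of the 48 arrays (the scanner software's well-above-background flag), which held for 19 of the 21 probes and for 7 of the 9 genes. No probe was found for CFD under this rule, and the 2 probes of C7 were too dim to be tested.

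The pigs came from lines selected in opposite directions on residual feed intake (RFI), the part of feed intake not accounted for by growth and maintenance, so that low RFI pigs are the more efficient ones. Within each line, 12 barrows ate ad libitum a high fat, high fiber (HF) diet and 12 a low fat, low fiber (LF) diet. The 4 groups of 12 are called LF-fed low RFI, LF-fed high RFI, HF-fed low RFI and HF-fed high RFI pigs. The comparison of lines asked whether complement transcripts differed with selection for feed efficiency, and the comparison of diets whether they differed with the feed. Each direction of selection was represented by 1 line, so that an effect of selection and a chance difference between the lines cannot be told apart.

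Complement is a cascade of plasma and tissue proteins that marks microbes, immune complexes and dying cells for removal. In the classical pathway, C1q (built from the chains of C1QA, C1QB and C1QC) recognises the target, and the proteases C1r and C1s attached to it cleave the next components, which leads to cleavage of the central protein C3. The alternative pathway amplifies C3 cleavage with factor B (CFB), which is cut by the protease factor D (CFD), and the terminal components, C7 among them, assemble into a pore in the target membrane. The C1q chains are known mainly as products of macrophages and dendritic cells, C1r and C1s also as products of fibroblasts, C3 and factor B as liver proteins also made in other tissues, and factor D as a product of adipocytes.

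Each probe is an oligonucleotide of 60 bases, and a stretch of 30 bases is shown, 5′ to 3′ as in the array files, for the probes on which the results turn. No genome was used, so the positions given are positions within the probe. The first set holds the brightest tested probe of the C1q chains, of C3 and of CFB (hereafter the lead probe of each gene), each from base 1 to base 30.
C1QA A_72_P165561: taagggccgcatttaccagggttcagaagc
C1QB A_72_P442926: tactacttcacctatcatgccagctctcga
C1QC A_72_P403253: tcaccttctgtgaccacatgtctaatagca
C3 A_72_P165601: gactttgacgattacatcatggtcatcgag
CFB A_72_P302604: tttctctaaggggtttcctgctggaaaggg

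The second set shows why some probes of a gene are not separate measurements. Of the 6 C3 probes, A_72_P745528 and O9203 had the same 60 bases, and A_72_P737664 and A_72_P742730 shared a run of 39 bases, of which the first bases are in capitals below (bases 9 to 38 of the former and 13 to 42 of the latter probe).
C3 A_72_P737664: ggggcttatACAGCCTGGGTCAGTCAAGGT
C3 A_72_P742730: tggggcttaACAGCCTGGGTCAGTCAAGGT
The C1S probes A_72_P442675 and O3426 shared 58 bases. The letters AATAAA, the motif that precedes the end of many transcripts, stood in 3 of the 21 complement probes (14.3%) and in 10.3% of all probes, while the same motif on the other strand, TTTATT, stood in 0 of the 21 and in 4.32% of all probes. The C1S lead probe held it from base 39, in capitals in its bases 27 to 56.
C1S A_72_P442675: actctctactgtAATAAAgcacgtttataa

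The last sequence belongs to the other C1QB probe, O8971, whose values went apart from those of the lead probe. Capitals in its first 30 bases mark CC letters spaced 9 bases apart. Read on the opposite strand they are GG, the first bases of glycine codons, and a glycine every few residues is typical of the collagen-like stem of C1q.
C1QB O8971: aggaatcCCtggatctCCcttctctCCaac
In this probe, GGN triplets with this spacing stood at 4 of 6 places on the opposite strand and at 3 of 7 places on the printed strand, and 0.512% of all probes held as many on either strand. Which strand the probe was designed to was not checked.

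The 48 arrays lay on 6 slides, each with 2 arrays of every group, and were scanned on 2 days. The share of probes well above background ran from 59.2% to 74.2% per array, the median signal ranged from 52.8 to 107.9, and no spot was saturated. All 10 skeletal muscle markers (such as ACTA1 and CKM) were measured, with a mean level per pig between 8.97 and 9.55. Levels are the log2 of the processed signal after centring each array on the mean of its tested probes, so that 0 is the mean tested probe of that array, and levels of different probes are not compared. In bulk muscle, fewer cells of a type and less RNA per cell cannot be told apart.

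Transcripts of C3 and of the C1q chain C1QB, at its lead probe, were more abundant in high RFI than in low RFI pigs. C1QA passed the threshold only narrowly, and 10 of 16 other settings ended its call. Of the 19 tested probes, 7 were called higher in high RFI pigs over both diets and 0 were called lower (limma, Benjamini-Hochberg adjusted over all 42125 tested probes). These were 5 of the 6 C3 probes, the lead probe of C1QB and the lead probe of C1QA. Of all tested probes, 6.57% were called higher in high RFI pigs and 9.85% were called lower. The line difference (high RFI minus low RFI) was above 0 at 18 of the 19 complement probes, with a median of 0.31, whereas over all tested probes it was above 0 at 41.8% and had a median of -0.03. Since 6 of the 19 probes belonged to C3 and 4 to C1S, and several shared sequence, these counts are not counts of separate genes. The genes, and the lists used below, were chosen with earlier results of these data known. Counts set beside all tested probes are therefore descriptions and not tests. At the lead probes, 3 of the 7 genes were called (C1QA, C1QB and C3), and all 7 differences were above 0.

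**Figure D1:**
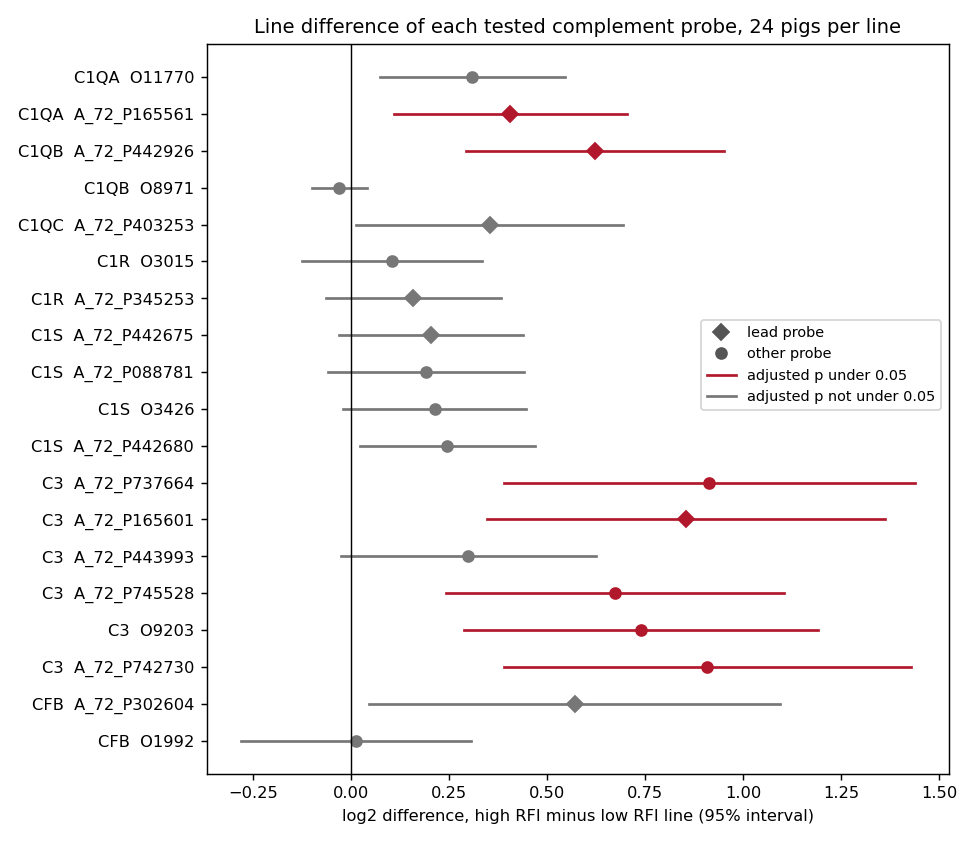
Line difference (high RFI minus low RFI, log2 scale, x axis) of each of the 19 tested complement probes (y axis), with 24 pigs per line; bars are 95% intervals from limma, diamonds are lead probes, and red marks an adjusted p under 0.05. The 5 red C3 probes lie between 0.67 and 0.91, and the C1QB probe O8971 is the only point below 0.

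C1QA encodes the A chain of C1q. The lowest, median and highest levels of its lead probe were -0.10, 0.64 and 1.70 in LF-fed low RFI pigs, and 0.35, 1.21 and 1.79 in LF-fed high RFI pigs. On the HF diet they were -0.40, 0.45 and 1.38 in low RFI pigs and 0.17, 0.83 and 1.91 in high RFI pigs. The median was thus higher in the high RFI line on both diets, and the ranges of the lines overlapped over most of their length. Over both diets the mean was 1.02 ± 0.52 for high RFI and 0.61 ± 0.54 for low RFI pigs (SD, n = 24 each), a difference of 0.41 (standard error 0.15, 95% interval 0.11 to 0.70) or 1.33-fold. The limma adjusted p was 0.05 after rounding, just under the threshold, and ranged from 0.00885 to 0.101 over 16 other settings, 10 of which ended the call.

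C1QB, the gene of the B chain, had the smallest adjusted p of the 7 genes. On the LF diet, its lead probe had a lowest, median and highest level of 1.25, 2.08 and 3.07 in low RFI pigs and of 1.35, 2.78 and 3.34 in high RFI pigs. The corresponding levels on the HF diet were 0.58, 1.77 and 2.61 in low RFI pigs and 1.49, 2.24 and 3.53 in high RFI pigs. High RFI pigs were above the median of all pigs in 16 of 24 cases and low RFI pigs in 8 of 24, and the groups overlapped. The mean was 2.52 ± 0.60 for high RFI and 1.90 ± 0.59 for low RFI pigs (SD, n = 24 each). This difference of 0.62 (standard error 0.16, 95% interval 0.29 to 0.95), or 1.54-fold, had a limma adjusted p of 0.00695, which stayed between 0.00188 and 0.019 with the other settings.

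For C1QC, the gene of the C chain, the lowest, median and highest levels on the LF diet were -0.82, -0.10 and 1.19 in low RFI pigs and -1.08, 0.52 and 1.17 in high RFI pigs. Levels on the HF diet were -1.36, -0.24 and 0.89 in low RFI pigs and -0.46, 0.08 and 1.11 in high RFI pigs. The lines overlapped nearly fully, although the median of the high RFI line was the higher one on both diets. The difference of 0.35 (standard error 0.17, 95% interval 0.01 to 0.69) did not pass the threshold (limma adjusted p = 0.144).

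**Figure D2:**
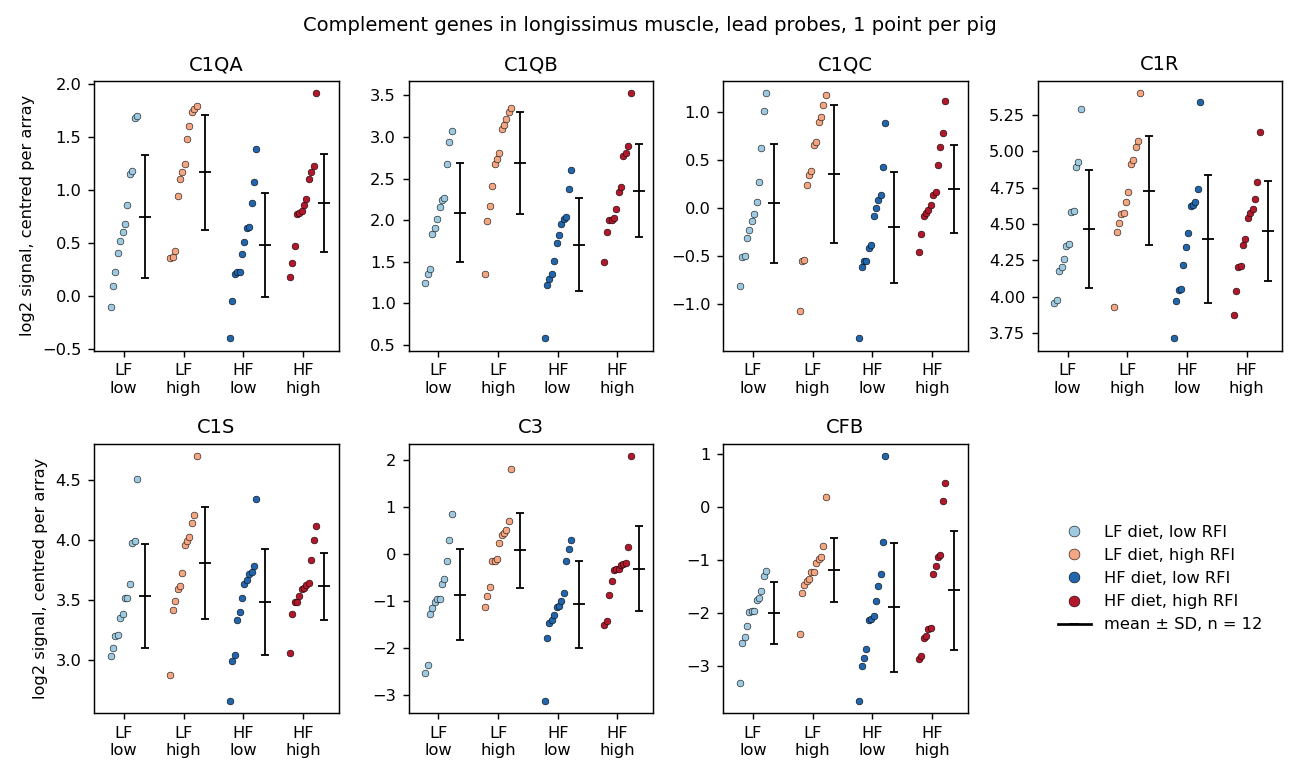
Level of the lead probe of each of the 7 tested genes (y axes, log2 signal centred per array) in each of the 48 pigs (1 point per pig), by diet and RFI line (x axes); the bars beside the points are the mean ± SD of 12 pigs. The high RFI points sit higher on both diets for C1QA, C1QB and C3, with overlap between all groups, and CFB has its widest spread on the HF diet.

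The proteases C1r and C1s, which C1q activates, showed no called difference between the lines. The level of C1R lay between 3.71 and 5.34 among low RFI pigs (median 4.36) and between 3.87 and 5.40 among high RFI pigs (median 4.58), and the difference was 0.16 (standard error 0.11, 95% interval -0.06 to 0.38, limma adjusted p = 0.337). The level of C1S lay between 2.65 and 4.50 among low RFI pigs (median 3.51) and between 2.87 and 4.70 among high RFI pigs (median 3.62), and the difference was 0.20 (standard error 0.12, 95% interval -0.03 to 0.44, limma adjusted p = 0.230). For both genes 14 of 24 high RFI and 10 of 24 low RFI pigs were above the median of all pigs. The other C1R probe had a difference of 0.10 and the other 3 C1S probes had differences from 0.19 to 0.25, none of them called. The probes of a protease followed each other closely over the 48 pigs (r with the lead probe of 0.95 for C1R and of 0.94 to 0.98 for C1S).

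C3, the protein on which all activation pathways converge, showed the largest line difference among the lead probes of the 7 genes. Its lead probe had a lowest, median and highest level of -2.53, -0.95 and 0.85 in LF-fed low RFI pigs and of -1.12, 0.07 and 1.81 in LF-fed high RFI pigs. On the HF diet the levels were -3.12, -1.11 and 0.29 in low RFI pigs and -1.51, -0.31 and 2.08 in high RFI pigs. Of the pigs above the overall median, 17 were of the high and 7 of the low RFI line, while the ranges still overlapped. The means were -0.11 ± 0.86 for high RFI and -0.97 ± 0.92 for low RFI pigs (SD, n = 24 each). The difference was 0.85 (standard error 0.25, 95% interval 0.35 to 1.36), or 1.81-fold, with a limma adjusted p of 0.0156 and a range of 0.0071 to 0.0324 over the other settings.

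The other called C3 probes had differences of 0.91 (A_72_P737664, limma adjusted p = 0.0126), 0.91 (A_72_P742730, 0.0121), 0.74 (O9203, 0.0185) and 0.67 (A_72_P745528, 0.0247). Over the 48 pigs they followed the lead probe with r between 0.98 and 0.99. The remaining C3 probe, A_72_P443993, had a mean of -2.07 ± 0.55 for high RFI and -2.36 ± 0.59 for low RFI pigs (SD, n = 24 each). Its difference of 0.30 (95% interval -0.03 to 0.62) was not called (limma adjusted p = 0.200), and its r with the lead probe was 0.81.

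CFB, the gene of factor B, varied most between pigs on the HF diet. On the LF diet, its lowest, median and highest levels were -3.32, -1.96 and -1.20 in low RFI pigs and -2.40, -1.23 and 0.18 in high RFI pigs, with SDs of 0.58 and 0.60. On the HF diet, they were -3.66, -2.08 and 0.96 in low RFI pigs and -2.86, -1.77 and 0.45 in high RFI pigs, with SDs of 1.21 and 1.12. Thus 17 of 24 high RFI and 7 of 24 low RFI pigs were above the overall median, as for C3, but the highest pig of all was of the low RFI line. The line difference of 0.57 (standard error 0.26, 95% interval 0.05 to 1.09) was not called (limma adjusted p = 0.125). Without that highest pig, number 8 of the HF-fed low RFI group, it was 0.70 (limma adjusted p = 0.0341). This pig was picked as the farthest from its group mean for CFB (by 2.85), and leaving out a high low RFI pig must raise the difference. With normexp background correction the difference was 0.31 and with the log2 table of the authors it was 0.38, neither of them called (limma adjusted p = 0.200 and 0.179).

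Factor D was looked at through 2 probes outside the rule, which the array describes as complement factor D without its current symbol and which share 52 bases. Both were well above background on all 48 arrays. The probe A_72_P039081 lay between 4.85 and 5.91 among low RFI pigs (median 5.37) and between 4.96 and 5.81 among high RFI pigs (median 5.39), so that the lines lay on top of each other. The line differences were -0.0019 (95% interval -0.13 to 0.13, limma adjusted p = 0.989) and -0.03 (95% interval -0.16 to 0.10, limma adjusted p = 0.808). For C7, the terminal component, 1 probe was well above background on 2 arrays, both of LF-fed low RFI pigs. The other was so on 1 array, that of an LF-fed high RFI pig. Only a bound on the level of C7 was available, so no difference is given. Both probes entered the setting without a filter on dim probes, where neither was called between the lines.

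Probes of the same gene did not always move together. The C1QB probe O8971, shown above, was well above background on all 48 arrays, with levels from 0.17 to 0.61, an SD of 0.11 in each line and a line difference of -0.03 (95% interval -0.10 to 0.04). Its r with the C1QB lead probe was -0.37, and the mean of both probes gave a difference of 0.30 (limma adjusted p = 0.00775) in place of 0.62. The C1QA probe O11770 was well above background on 43 arrays, had an r of 0.18 with the lead probe, and had a difference of 0.31 (limma adjusted p = 0.0623). The CFB probe O1992 passed the background on 12 arrays only, had an r of -0.14 with the lead probe, and had a difference of 0.01 (95% interval -0.28 to 0.31). Probes outside the rule that repeated a lead sequence gave values close to it, with 0.86 for C3 (60 bases shared, limma adjusted p = 0.012), 0.37 for C1QA (58 bases, 0.0867) and 0.51 for CFB (60 bases, 0.158).

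The line difference was above 0 at 17 of the 19 probes on the HF diet and at 19 of 19 on the LF diet. Over all tested probes it was above 0 at 42.7% and 42.6%. None of the 19 passed the threshold within a diet. On the HF diet, 0 of the 19 probes were called by limma (5 with an unadjusted p under 0.05, smallest adjusted p = 0.0753), against 6.39% of all tested probes. On the LF diet, 0 were called (9 with an unadjusted p under 0.05, smallest adjusted p = 0.121), against 2.47% of all. The line difference of C1QB was 0.65 on the HF and 0.60 on the LF diet, that of C1QA 0.40 and 0.42, and that of C3 0.76 and 0.95. The difference was 0.33 on the HF and 0.81 on the LF diet for CFB, and 0.05 and 0.27 for C1R. None of these gaps between the diets passed the test of the interaction of line and diet, in which limma called 0 of the 19 probes (0 with an unadjusted p under 0.05, smallest adjusted p = 0.999), against 0% of all tested probes, of which 1875 had an unadjusted p under 0.05. The interval of the interaction of CFB, -1.54 to 0.56, leaves room for sizeable differences in either direction.

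No complement probe was called between the diets. Over both lines, limma called 0 of the 19 probes for the diet, against 0.42% of all tested probes, and 1 had an unadjusted p under 0.05. That probe was the C1QB lead probe, with a mean of 2.03 ± 0.64 (SD, n = 24) on the HF and 2.39 ± 0.66 (SD, n = 24) on the LF diet, a difference (HF minus LF) of -0.36 (standard error 0.16, limma adjusted p = 0.323). At the lead probes of all 7 genes the mean was lower on the HF diet, from -0.12 for C1S to the value of C1QB, with -0.28 for C1QA and -0.30 for C3. Over all tested probes the diet difference was above 0 at 50.8%. Within the low RFI line 0 of the 19 probes were called between diets, against 0.199% of all, and within the high RFI line 0, against 0% of all, and in neither line did a complement probe have an unadjusted p under 0.05 by limma.

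The line difference was seen across slides. High RFI pigs had the higher mean on 6 of 6 slides for C1QA (0.05 to 0.78), C1QB (0.25 to 0.95) and C3 (0.21 to 1.42), on 5 of 6 for C1QC and CFB, and on 4 of 6 for C1R and C1S. For the arrays of either scan day, 24 each, the difference was 0.61 and 0.63 for C1QB, 0.40 and 0.41 for C1QA, and 1.02 and 0.68 for C3.

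A few pigs stood at the ends of several genes. Pig 28 of the HF-fed low RFI group had the lowest level of all 48 pigs at 7 of 7 lead probes, while its array, with 62.0% of probes well above background and a median signal of 63.1, lay within the range of the others. Pig 14 of the HF-fed high RFI group had the highest level of C1QA (1.91), C1QB (3.53) and C3 (2.08). Without pig 28 the line difference was 0.57 for C1QB and 0.76 for C3 (limma adjusted p = 0.0122 and 0.0263), and without pig 14 it was 0.57 and 0.75 (0.0117 and 0.0251). C1QA was no longer called without pig 28, 3 or 8 of the HF-fed low RFI group or pig 14 (limma adjusted p = 0.0806, 0.0612, 0.072 and 0.0822).

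Across pigs some of these genes followed each other closely, as described by Pearson correlations over the 48 pigs, which share the array of each pig. The C1q chains had r of 0.91 to 0.96 with each other, and C1R and C1S had r of 0.92. The 3 C1q genes are neighbours in the pig gene table used (assembly Sscrofa11.1), in the order C1QA, C1QC and C1QB, and C1R lies next to C1S. Between these sets the r values were 0.56 to 0.69, and C3 had r of 0.67 to 0.74 with the C1q chains and of 0.58 and 0.64 with C1R and C1S. CFB stood apart from the C1q chains, with r of 0.21 to 0.26, and of 0.52 with C3. Its r of 0.42 with each protease was not seen on the LF diet, where it was -0.10 to 0.11 within the groups of 12 pigs, against 0.39 to 0.74 on the HF diet, a gap that was not tested. The brighter factor D probe, A_72_P417047, had r of 0.01 to 0.21 with the 7 genes. Once the means of the 4 groups were removed, the r values were 0.92 to 0.96 within C1q, 0.59 to 0.66 between C1q and C3, and 0.10 to 0.13 between C1q and CFB.

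**Figure D3:**
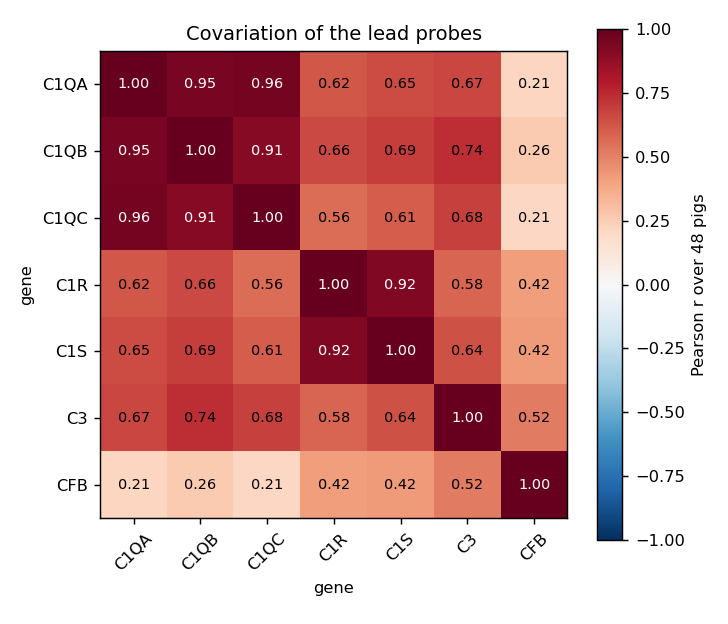
Pearson r over the 48 pigs between the lead probes of the 7 genes (both axes), with colour and printed value giving r from -1 to 1. The C1q chains form a block of 0.91 to 0.96, C1R and C1S a block of 0.92, and the CFB row is palest against the C1q chains.

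The genes with the most similar pattern, among 9657 other symbols, differed from component to component. C1QA was nearest to C4BPA (r = 0.88), IFI30 (0.87) and MRC1 (0.86), of which IFI30 is a thiol reductase of antigen-presenting cells and MRC1 the macrophage mannose receptor. C1QB was nearest to FCGR3A, an Fc receptor (0.92), to SRGN, a granule proteoglycan of blood cells (0.91), and to IFI30 (0.91), and C1QC to C4BPA (0.85), SRGN (0.83) and MRC1 (0.83). The nearest genes of both C1R and C1S were 3 other genes of the classical pathway, namely C2 (0.84 and 0.85), C4A (0.84 and 0.84) and SERPING1, the inhibitor of C1 (0.80 and 0.82). C3 was nearest to NCF4, a subunit of the phagocyte oxidase (0.82), to C2 (0.81) and to RGS10 (0.81). CFB was nearest to genes of plasma proteins made by the liver, namely prothrombin F2 (0.73), transthyretin TTR (0.72) and transferrin TF (0.72). With group means removed, these r values lay between 0.75 and 0.88.

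The rest of the complement system was read from a list of 40 other genes, of which 13 had no probe by name, 7 had only probes too dim to be tested and 20 had tested probes, 53 in all. Between the lines, 20 of the 53 probes were called by limma, 19 of them higher and 1 lower in high RFI pigs, with a median difference of 0.30. Over all tested probes, 6.57% were higher and 9.85% lower. By gene, 10 of the 20 had a probe called higher, 1 had a probe called lower and 9 had none called. The count of 20 was 13 without pig 28 of the HF-fed low RFI group and 13 without pig 14 of the HF-fed high RFI group. Between the diets 0 of the 53 were called, against 0.42% of all tested probes. A mean lower on the HF diet was seen at 36 of them, while 50.8% of all tested probes were higher on it. The diet count was 4 without pig 14, with 3 probes of VSIG4 (-0.65 to -0.47) and 1 of C5AR1 (-0.77) lower on the HF diet. The share of all tested probes called for the diet without this pig was not tabulated, so this count cannot be weighed.

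Among recognition proteins that start the lectin pathway, FCN2 was higher at both probes (0.78, limma adjusted p = 0.0431, and 1.48, limma adjusted p = 0.00791), whereas the tested FCN1 probe fell by 0.17 (limma adjusted p = 0.0488). Among the proteases, C2, which forms the C3-cleaving enzyme of the classical pathway, was called at 1 of 3 probes (0.61, limma adjusted p = 0.0354), and MASP1 and MASP2 at none. C4A was not found by name in the list, and the probe that the gene table assigned to it had a difference of 0.57 (limma adjusted p = 0.0424). Properdin (CFP), which stabilises the alternative pathway enzyme, was called at 1 of 2 probes (0.46, limma adjusted p = 0.0403). Its brighter probe had a difference of 0.12 and was not called. Of the terminal components, C5 and C8A were tested, and neither was called.

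**Figure D4:**
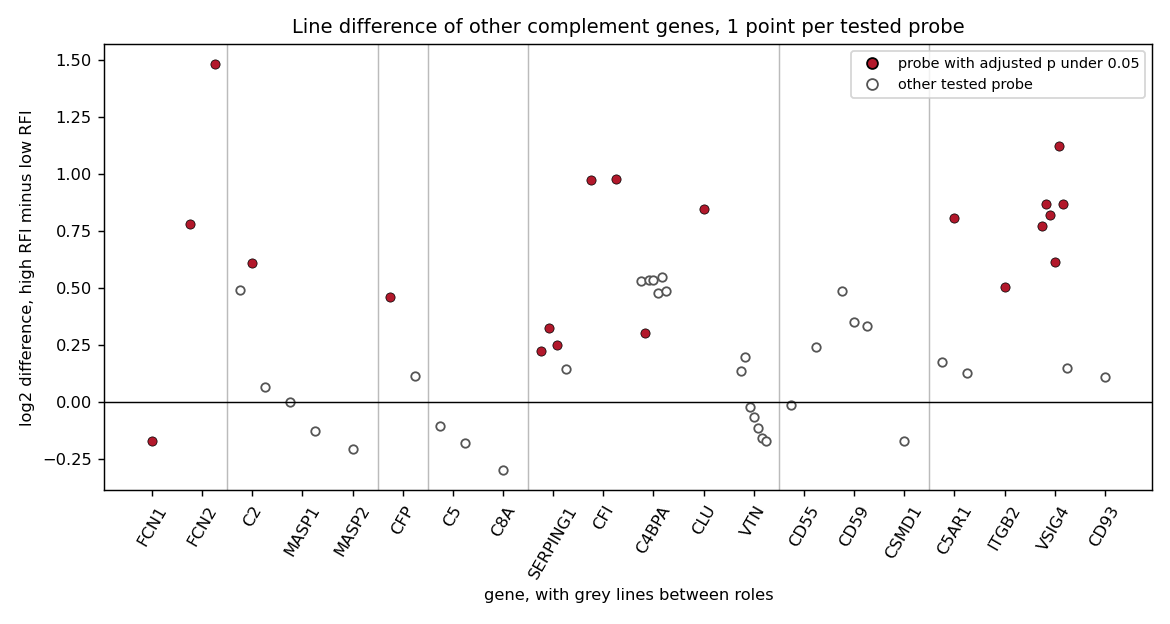
Line difference (y axis, high RFI minus low RFI, log2 scale) of each of the 53 tested probes of 20 other complement genes (x axis, ordered by role, with grey lines between roles); filled points have an adjusted p under 0.05. The points of CFI, CLU and 6 of 7 of VSIG4 lie at 0.62 or above, and FCN1 is the only filled point below 0.

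Several soluble regulators were higher in high RFI pigs. Factor I (CFI), the protease that inactivates cleaved C3, had the smallest adjusted p of the complement genes reported here. Its probe A_72_P251667 lay between -3.63 and -1.24 among low RFI pigs (median -2.37) and between -2.67 and -0.24 among high RFI pigs (median -1.36). The lines overlapped, and the difference was 0.97 (standard error 0.16, limma adjusted p = 3.6e-05), or 1.96-fold. The other CFI probe gave 0.98 (limma adjusted p = 5.7e-05), and both were called on the HF diet (0.78 and 0.79) and on the LF diet (1.17 at both). Clusterin (CLU) was higher by 0.85 (limma adjusted p = 0.00534), SERPING1 was higher at 3 of 4 probes (0.23 to 0.32), and C4BPA was called at 1 of 7 probes (0.30, limma adjusted p = 0.0332) while its other probes lay between 0.48 and 0.55 and were not called. VTN was not called.

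None of the tested membrane regulators (CD55, CD59 and CSMD1) was called. Among the receptors, VSIG4, which binds C3 fragments and is known from tissue macrophages, was higher in the high RFI line at 6 of 7 probes. At 4 of these, well above background on all arrays, the difference was 0.62 to 0.87, and 3 of them were also called on the LF diet. The probe A_72_P643751 (0.82) was well above background in 12 of 24 low RFI and 19 of 24 high RFI pigs. The probe A_72_P160701 (1.12, called on both diets) was so in 5 of 24 and 11 of 24, so that most of its values lie near the background. C5AR1, the receptor of the C5 fragment that attracts phagocytes, was called at 1 of 3 probes (0.81, limma adjusted p = 0.00718), and ITGB2, the shared chain of the integrin complement receptors, was higher by 0.51 (limma adjusted p = 0.0222). CD93 was not called.

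Most markers of macrophages moved with the C1q genes and C3. Of 10 macrophage markers 9 were tested and 6 were called, all higher in the high RFI line (against 6.57% of all tested probes): CSF1R (0.94), LYZ (1.5), CD14 (0.30), AIF1 (0.43), MSR1 (0.59) and TYROBP (0.42). CD163 (0.52), CD68 (0.40) and MRC1 (0.35) were not called, and no probe carried the name MARCO. The mean level of the 9 tested markers lay between -2.15 and -0.27 among low RFI pigs (median -1.09) and between -1.48 and 1.32 among high RFI pigs (median -0.58), and its lowest and highest pigs were pigs 28 and 14 named above. Over the 48 pigs this level had r of 0.84 with C1QA, 0.90 with C1QB, 0.79 with C1QC and 0.79 with C3, against 0.64 with C1R, 0.60 with C1S and 0.35 with CFB. The exception among the single markers was CD68, well above background on 28 arrays, with r of 0.19 to 0.23 with the C1q chains and 0.31 with C3. The part of macrophage content in the line differences of complement genes was not tested.

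**Figure D5:**
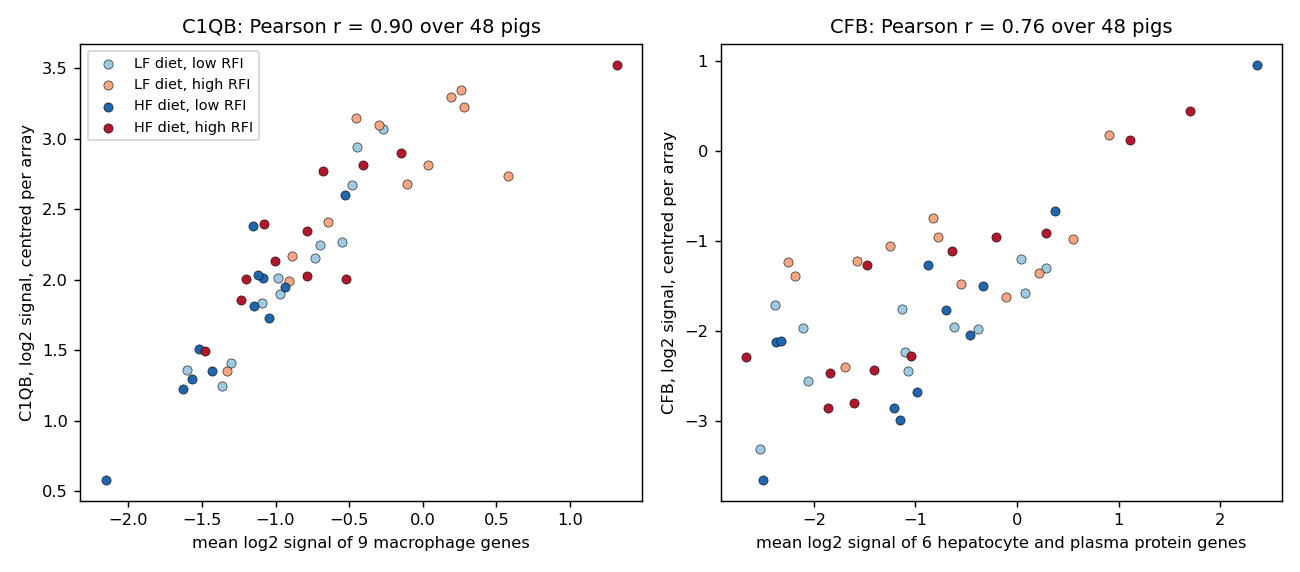
Left, level of the C1QB lead probe (y axis) against the mean level of 9 macrophage markers (x axis); right, level of the CFB lead probe against the mean level of 6 hepatocyte and plasma protein markers; each point is 1 of 48 pigs, coloured by group, on the log2 scale centred per array. C1QB rises with the macrophage list (r = 0.90) and CFB with the plasma protein list (r = 0.76), and the pig with the highest CFB (0.96) also has the highest plasma protein level (2.36).

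Transcripts of plasma proteins made by hepatocytes were spread widely between pigs, and 5 of the 6 tested followed CFB (r of 0.66 to 0.72), the exception being APOA1 (0.16). Of 8 such markers 6 were tested (ALB, APOA1, TTR, FGB, HP and TF). Between the lines 0 were called, beside 16.4% of all tested probes in either direction. FGB was well above background on at most 15 arrays and TTR on at most 31. Fibrinogen FGA was too dim to be tested and no probe carried the name AHSG. Their mean level lay between -2.53 and 2.36 among low RFI pigs (median -1.03) and between -2.67 and 1.70 among high RFI pigs (median -0.94). It had r of 0.76 with CFB (0.78 with group means removed), 0.30 with C3 and -0.09 to -0.07 with the C1q chains. Pig 8 of the HF-fed low RFI group was highest in both this list and CFB, and was second lowest in the macrophage list and in C1QB. The part of these transcripts in the CFB values was not tested.

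For the other marker lists, calls between the lines were made for 1 of 8 tested T and B cell markers (CD79B, higher), 0 of 3 neutrophil markers, 1 of 8 adipocyte markers (FABP4, higher), 2 of 8 fibroblast markers (COL1A1 and COL1A2, higher), 1 of 6 endothelial markers (TEK, higher), 1 of 3 erythroid markers (SLC4A1, higher) and 2 of 10 skeletal muscle markers (MYH2 and TNNI2, lower), beside 16.4% of all tested probes in either direction. The T and B cell list had r of 0.61 to 0.66 with the C1q chains, and its level ran from -3.36 to -1.87 among low RFI pigs (median -2.58) and from -3.58 to -2.17 among high RFI pigs (median -2.66). The skeletal muscle list had r of -0.43 to -0.38 with the C1q chains. The fibroblast list, whose cells are a known source of C1r and C1s, had r of 0.08 with C1R and 0.13 with C1S, and the adipocyte list r of -0.11 to 0.19 with the 7 genes. No marker on any list was called between the diets. The part of these cell types in the results was not tested.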

How the data were processed

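Total RNA of longissimus muscle from 48 barrows was hybridised on one-colour 60-mer arrays. The authors deposited spot intensities from Agilent Feature Extraction, background-subtracted, and a table of log2 values, which proved to be the log2 median spot signal minus each array's median (34472 probes, served as an alternative). The submitters' processing notes name R 2.10.0.

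The log2 of the processed intensity was taken without control spots (61625 spots per array, of which 60306 were not controls) and outlier spots, averaged per probe, and shifted so that the mean of the 42125 tested probes (well above background on 12 or more arrays) was 0 on each array. The 4 groups were fitted in limma 3.58.1 (R 4.3.3), with contrasts for line, diet and their interaction, and p-values were adjusted by Benjamini-Hochberg over all tested probes, with a threshold of 0.05. Standard errors and 95% intervals are those of limma. Data were handled with Python 3.11.15, numpy 2.4.6 and pandas 2.3.3, and the fit was tested on simulated data with 200 changed probes.

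The 7 genes with a tested probe were described through the lead probe, the tested probe with the highest mean. By rule, other complement genes were named with values when a probe was called, and the 3 nearest genes by r. Tested genes of the list without a call were also named, after their values were seen. The level of a marker list is the mean of its tested markers' lead probes. Of the other complement genes, 1 is not reported here and was left out of the counts. Members and lists were chosen with earlier results of these data known. Symbols came from the array files and a gene table (Sscrofa11.1). The number of arrays limits the precision. Alternatives were the 75th percentile and quantile scaling, normexp (offset 50), no filter or 24 arrays, outlier spots kept, slide as a block, the deposited table, the variance analysis of the methods and the mean of a gene's probes. Leaving out single pigs was chosen after seeing the data.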

Additional observations from a re-analysis of the deposited data

How the results depend on the processing

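The count of complement probes called higher in the high RFI line, 7, lay between 5 and 8 under 16 alternatives (6 to 8 when single pigs were left out), and the lead probes of C1QB and C3 were called under each of them. The counts of 0 for the diets were kept under the same alternatives, and those of 0 within diets, within lines and for the interaction under 8. C1QA was called or not with small changes: its limma adjusted p was 0.052 with 75th percentile scaling, 0.0538 with quantile scaling, 0.101 without a filter on dim probes, 0.0503 with outlier spots kept, 0.0535 with slide as a block and 0.061 with the variance analysis of the methods. For the other complement genes, the count between the lines was 13 to 27 without single pigs (20 with all). Beside it, 14.5% to 18.7% of all tested probes were called. The count between the diets was 0 to 4 (0 with all), with no such share at hand. The C1S probe A_72_P442680 was called without pig 33 of the low RFI group on the LF diet (0.29, limma adjusted p = 0.0489). No direction of a lead probe was reversed by any alternative run. The median line difference of all probes lay between -0.04 and -0.02 over the settings, a spread larger than the line differences of CFB O1992 and of the factor D probe A_72_P039081. Dim probes (C7, CFB O1992) limit what can be said of those transcripts.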
